A study of Mus musculus with 42 samples.

Results

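*Tug1* is a long noncoding RNA gene on the minus strand of mouse chromosome 11 (GRCm38, 3639785 to 3649673), so genes at higher coordinates lie upstream of it. The 10 genes described here are *Osbp2*, *Dusp18*, *Slc35e4*, *Tcn2*, *Pes1*, *Gal3st1*, *Sec14l4*, *Sec14l3*, *Mtfp1* and *Sec14l2*, in order of distance. They were taken by name from a table of 26653 genes as upstream neighbors within about 0.6 Mb of *Tug1*, with *Morc2a*, the divergent partner of *Tug1*, left out. Their wild-type and knockout values were known when the list was drawn up, so the members were in effect selected on these FPKM values, which are given as a description only.

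PolyA RNA had been sequenced from wild-type males and from homozygous *Tug1*-/- males of the strain Tug1_tm1.1Vlcg. Wild-type mice carried 2 normal *Tug1* alleles and no *lacZ*. *Tug1*-/- mice carried, on both alleles, a *lacZ* reporter in the place of most of *Tug1*. Its own promoter still drove transcription of the reporter, and the allele was present in all cells of the body. Both genotypes were on a C57BL/6J background, and the neomycin cassette had been removed from the knockout allele. Testes were represented by 4 wild-type and 3 *Tug1*-/- samples and prostate by 3 and 2. There were 3 samples per genotype of liver, heart, spleen, eyes and embryonic fibroblasts (MEFs, cultured to passage 2). According to the paper, the MEFs came from male littermate embryos of crosses between heterozygous mice. The age of the adult mice is not given in the sources used here.

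The deposited table holds 1 combined expression value per gene, genotype and tissue in FPKM, which corrects read numbers for library size and the length of the transcript. No value per mouse was available, so no replicate error or interval can be given, no test was run, and the depth behind each value is unknown. A change is the log2 ratio of *Tug1*-/- over wild-type after adding 0.1 FPKM to both, so changes of weakly expressed genes come out too small. A gene was read as higher or lower where it passed 1.5 times and reached 1 FPKM in at least 1 genotype. The targeted gene was lower in *Tug1*-/- by 5.66 to 7.60 on the log2 scale in the 7 tissues, and the *LacZ* sequence was listed at no more than 0.00894 FPKM in wild-type and at 0.355 FPKM (liver) to 54.3 FPKM (testes) in *Tug1*-/-. Defining markers of each labelled tissue were present, except that the prostate gene *Tgm4* was listed at 0 in prostate. Since these are bulk tissues, fewer cells of a type and less RNA per cell cannot be told apart.

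The 10 genes have no function common to all of them. *Osbp2* encodes a member of the oxysterol-binding protein family, which carries sterols and phosphoinositides between membranes, and it is known for its expression in male germ cells and retina. *Sec14l2*, *Sec14l3* and *Sec14l4* encode related proteins with a SEC14 lipid-binding domain, and *Sec14l2* binds tocopherol and squalene. *Tcn2* encodes transcobalamin, which delivers vitamin B12 to cells. *Gal3st1* encodes the sulfotransferase that makes sulfatide in myelin and seminolipid in germ cells. *Pes1* encodes a subunit of the PeBoW complex, which acts in assembly of the large ribosomal subunit, *Mtfp1* an inner membrane protein that promotes mitochondrial fission, *Dusp18* an atypical dual-specificity phosphatase, and *Slc35e4* a member of a family of nucleotide sugar transporters.

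Most of the 10 genes differed little between wild-type and *Tug1*-/- tissues. Of 70 pairs of gene and tissue, 43 reached 1 FPKM and 27 did not. Among the 43, 3 were higher (6.98%), 1 was lower (2.33%) and 39 were neither, and 32 differed by less than 0.25 on the log2 scale. Of the 91463 pairs of all genes at the same level, 2.40% were higher and 1.48% lower. The median absolute change was 0.13 over the 43 pairs and 0.11 over the pairs of all genes. The 4 pairs past 1.5 times were *Osbp2* in prostate and heart, and *Sec14l2* and *Mtfp1* in spleen. All 10 genes reached 1 FPKM in at least 1 tissue, and 7 of them passed the limit in none.

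**Figure D1:**
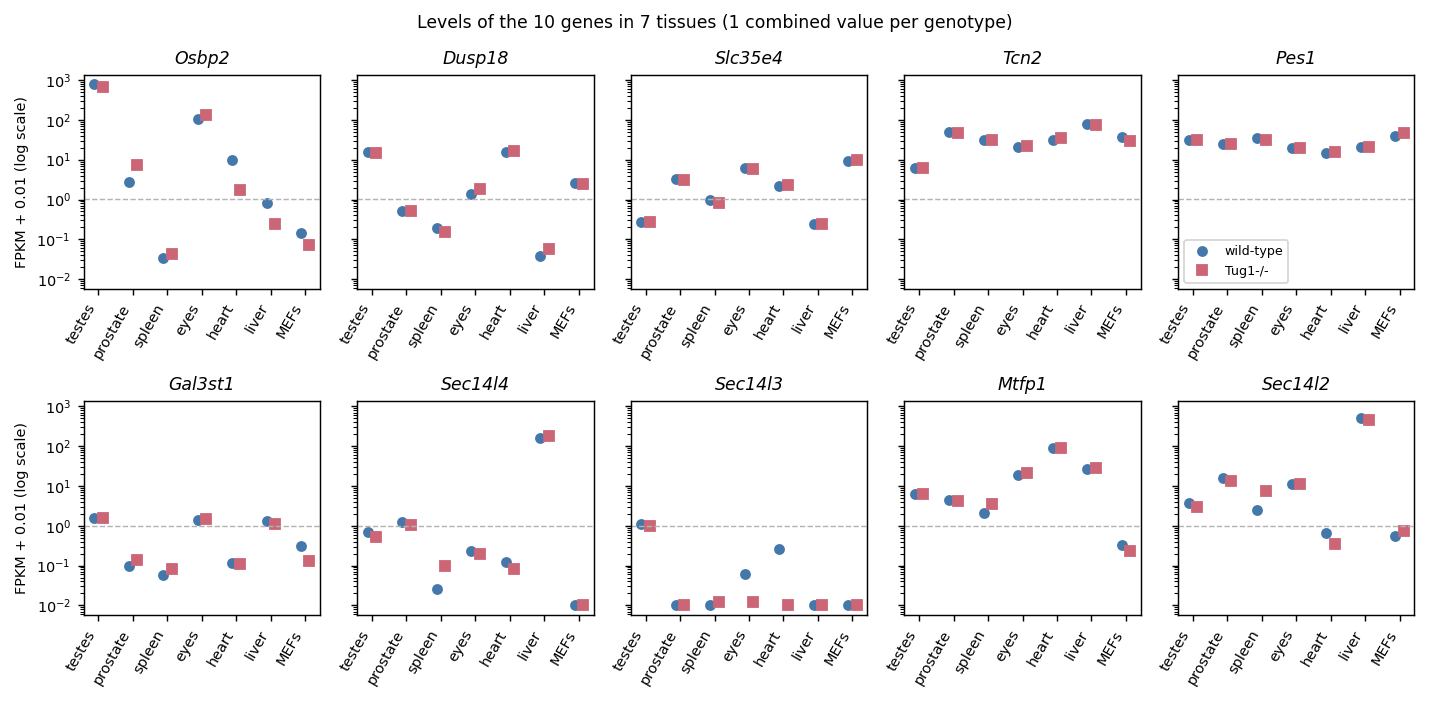
Levels of the 10 genes, 1 panel per gene in order of distance from *Tug1*, with tissues on the x axis and FPKM plus 0.01 on a log y axis. Circles are wild-type and squares *Tug1*-/-, each 1 combined value without error, and the dashed line marks 1 FPKM; *Osbp2* spans 0.0245 to 783 FPKM among wild-type tissues while *Pes1* stays between 15.0 and 39.8 FPKM.

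Read against all genes of the same tissue, the members' counts were as follows. In spleen, 2 of 4 members at 1 FPKM were higher, where 5.15% of all genes were higher and 6.43% passed in either direction. In prostate, 1 of 7 members was higher, against 2.76% of all genes higher and 3.55% in either direction. In heart, 1 of 6 members was lower, against 1.76% of all genes lower and 2.68% in either direction. No member passed in the other tissues, which means 0 of 8 in testes, 0 of 8 in eyes, 0 of 6 in liver and 0 of 4 in MEFs. The share of all genes past the limit was 2.32% in testes, 3.74% in eyes, 5.26% in liver and 3.65% in MEFs. With 4 to 8 members per tissue these counts move by large steps, and the list had been chosen with the same values in view.

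**Figure D2:**
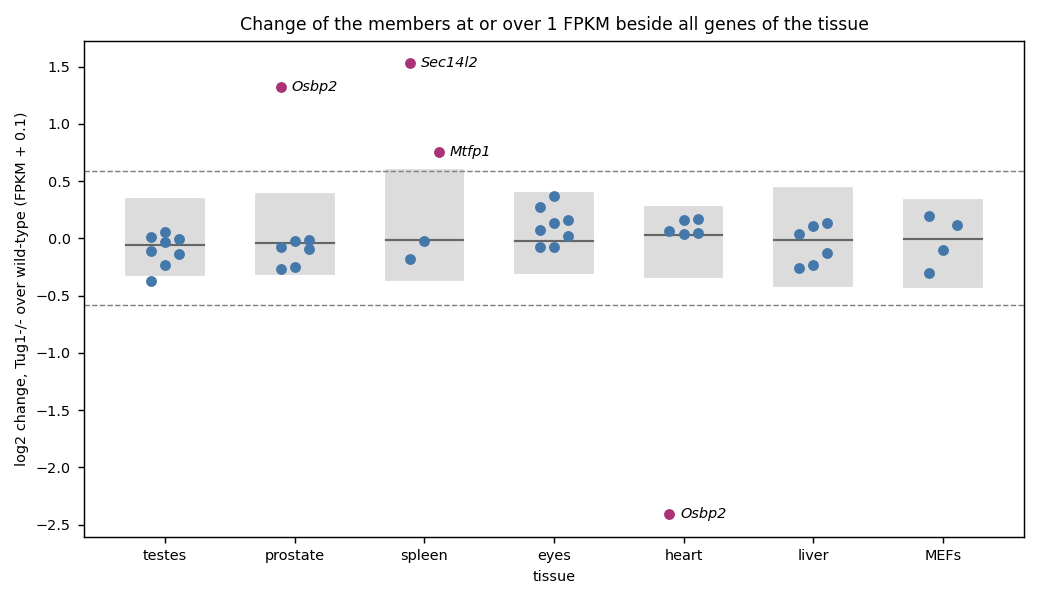
Log2 change (*Tug1*-/- over wild-type, FPKM plus 0.1, y axis) of every member at or over 1 FPKM in each of the 7 tissues (x axis), with members past 1.5 times in purple and named. Grey boxes span the 5th to the 95th percentile of all genes at or over 1 FPKM, the grey bar is their median, and dashed lines mark 1.5 times; 4 points lie outside the dashed lines, with *Osbp2* at 1.32 in prostate and at -2.41 in heart.

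*Osbp2*, *Sec14l2* and *Mtfp1* carry these 4 changes, and their promoters are shown because the members otherwise have only levels to compare. The sequences are the RefSeq entries on GRCm38.p6 from 250 bases before to 50 bases after an annotated start, printed 5′ to 3′ on the strand of the gene. Capitals mark the letters GGGCGG (a GC box), CCAAT and CACGTG, or their reverse complements, as found in these windows.
*Osbp2*, chr11:3863854-3864153, minus strand: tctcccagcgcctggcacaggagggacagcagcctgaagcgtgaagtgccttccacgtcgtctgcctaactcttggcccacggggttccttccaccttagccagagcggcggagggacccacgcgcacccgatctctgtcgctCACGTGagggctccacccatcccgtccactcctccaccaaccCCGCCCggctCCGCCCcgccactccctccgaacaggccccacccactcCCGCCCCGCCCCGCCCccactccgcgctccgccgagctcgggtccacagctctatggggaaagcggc
*Sec14l2*, chr11:4118680-4118979, minus strand: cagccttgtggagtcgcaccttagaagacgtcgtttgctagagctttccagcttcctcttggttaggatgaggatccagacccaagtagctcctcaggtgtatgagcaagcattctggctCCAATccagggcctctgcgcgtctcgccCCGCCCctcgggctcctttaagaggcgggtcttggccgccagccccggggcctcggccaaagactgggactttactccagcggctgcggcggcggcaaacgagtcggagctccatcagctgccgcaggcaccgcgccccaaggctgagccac
*Mtfp1*, chr11:4095382-4095681, minus strand: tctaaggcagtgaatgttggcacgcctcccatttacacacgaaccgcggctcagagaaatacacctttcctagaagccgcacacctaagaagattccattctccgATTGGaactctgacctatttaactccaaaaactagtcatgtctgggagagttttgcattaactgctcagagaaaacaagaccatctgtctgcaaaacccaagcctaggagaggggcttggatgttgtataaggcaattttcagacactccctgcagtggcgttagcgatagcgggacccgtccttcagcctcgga

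The *Osbp2* promoter held 70.3% G and C, 27 CpG dinucleotides, 5 GC boxes, of which 3 overlap, and 1 CACGTG. The entry shown is the outermost of 3 for this gene, whereas the single *Sec14l2* entry lies at a start inside the outermost one of GENCODE vM21. The *Sec14l2* promoter held 63.3% G and C, 21 CpG, 1 GC box and 1 CCAAT, and the *Mtfp1* promoter 48.7% G and C, 11 CpG and 1 CCAAT. Of 32851 promoters of that length, 35.7% held a GC box, 37.4% a CCAAT, 7.15% a CACGTG and 13.6% the letters TATAAA, which none of the 3 promoters held, and the median was 52.7% G and C with 7 CpG. RefSeq entries were found for 8 of the 10 genes, and *Tcn2* and *Sec14l4* had none. The deposited values are per gene and do not say which start was used.

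*Osbp2* (ENSMUSG00000020435.11) spans 3703731 to 3863903 on the minus strand, and its outermost start is 214.2 kb from the start of *Tug1*, nearest of the 10. It had the highest level of the 10 genes in any tissue. Wild-type levels were 783 FPKM in testes, 107 FPKM in eyes, 9.68 FPKM in heart, 2.80 FPKM in prostate, 0.830 FPKM in liver, 0.134 FPKM in MEFs and 0.0245 FPKM in spleen. Testes and eyes, the sites for which the gene is known, stood far above the other tissues. In *Tug1*-/- the values were 665 FPKM in testes and 129 FPKM in eyes, log2 changes of -0.24 and 0.27.

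In heart, *Osbp2* went from 9.68 FPKM in wild-type to 1.74 FPKM in *Tug1*-/-, a log2 change of -2.41, and 0.187% of all genes at 1 FPKM were lower by as much or more. In prostate it went from 2.80 to 7.15 FPKM, a log2 change of 1.32, and 0.777% of genes were higher by as much or more. The directions in these tissues are opposite, and the difference between them was not tested. In liver the values were 0.830 and 0.227 FPKM, both under 1 FPKM. How the 3 samples behind each heart value were spread, or the 3 wild-type and 2 *Tug1*-/- samples behind the prostate values, cannot be read from a combined value.

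Markers of other cell types moved beside *Osbp2* in both tissues. In heart, 4 of 5 skeletal muscle markers were lower in *Tug1*-/-, and the sum of all 5 was 196 FPKM in wild-type against 108 FPKM in *Tug1*-/-. Most of both sums was *Acta1*, the marker within the limit, at 142 and 106 FPKM. *Tnnt3*, a fast skeletal troponin, went from 30.3 to 0.786 FPKM, and *Mylpf*, a fast myosin light chain, from 18.2 to 1.43 FPKM. The 4 airway epithelium markers summed to 21.3 FPKM and 0.127 FPKM, nearly all of it *Scgb1a1*, the club cell secretory protein, and *Sftpc* and *Sftpb* were listed at 0 in *Tug1*-/- heart. Of the 5 lymphocyte markers 3 were lower, with a sum of 28.0 FPKM against 15.9 FPKM, and of the 5 adipocyte markers 3 were lower, with *Adipoq* (adiponectin) at 21.0 and 9.23 FPKM and a sum of 1510 and 1370 FPKM. Of the 7 erythroid markers in the table, 2 were higher and 2 lower in *Tug1*-/- heart. The 5 cardiac markers summed to 16000 and 16600 FPKM and none passed the limit. The part of these other cells in the *Osbp2* value was not tested.

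In prostate, 4 of 5 adipocyte markers were higher in *Tug1*-/-, with a sum of 66.3 FPKM in wild-type against 253 FPKM in *Tug1*-/-. *Adipoq* went from 3.93 to 15.5 FPKM and *Cfd*, the adipocyte protease adipsin, from 26.4 to 126 FPKM. Seminal vesicle markers summed to 8750 and 16600 FPKM, with *Svs5* at 4180 and 11500 FPKM, and 1 of the 5 was higher and 1 lower. Erythroid markers were higher for 4 of 7, macrophage markers for 2 of 5. Skeletal muscle markers summed to 175 FPKM and 167 FPKM in prostate, with none past the limit. Nearly all of this was *Acta1* (172 and 165 FPKM). *Mylpf* was at 2.67 and 2.04 FPKM, and the other markers were under 1 FPKM. Germ cell markers summed to 1.06 and 1.24 FPKM, most of it *Sycp3* (0.892 and 1.12 FPKM, within the limit). *Prm1* was at 0.0853 and 0.0659 FPKM, *Tnp2* at 0.0593 and 0.0303 FPKM and *Ddx4* at 0.022 and 0.0248 FPKM. *Tnp1* and *Prm2* were listed at 0 in both genotypes. The part of these cells in the prostate value of *Osbp2* was not tested.

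The adipocyte markers were also higher in *Tug1*-/- eyes, where all 5 passed and their sum was 108 FPKM in wild-type against 395 FPKM in *Tug1*-/-. Skeletal muscle markers were higher there too, 5 of 5, with a sum of 1470 and 2680 FPKM, as were 5 of the 7 erythroid markers. *Osbp2* was at 107 and 129 FPKM in eyes, within the limit. The part of these cells in its eye value was not tested. In testes the 6 germ cell markers summed to 39300 FPKM in wild-type against 33700 FPKM in *Tug1*-/-, and none passed the limit. The sum is nearly all from the spermatid genes *Prm1*, *Prm2*, *Tnp1* and *Tnp2*, with changes between -0.29 and -0.17, where *Osbp2* had -0.24, while the earlier germ cell genes *Sycp3* and *Ddx4* were at 0.03 and -0.04. The part of these cells in the testes value of *Osbp2* was not tested.

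**Figure D3:**
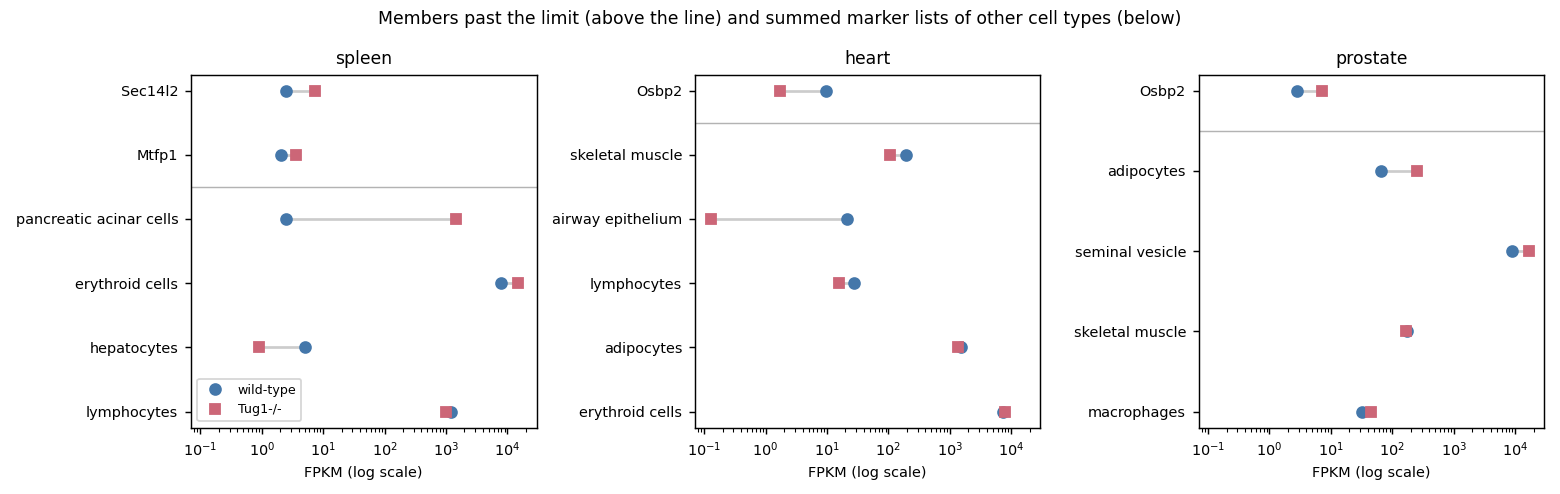
Wild-type (circles) and *Tug1*-/- (squares) FPKM on a log x axis, for the members past 1.5 times in spleen, heart and prostate (above the line in each panel) and for summed marker lists of other cell types in the same tissue (below). Each symbol is 1 combined value without error; the acinar sum in spleen goes from 2.47 to 1460 FPKM and the airway sum in heart from 21.3 to 0.127 FPKM.

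The other oxysterol-binding genes did not move as *Osbp2* did. The list of 11 relatives with the membrane anchors *Vapa* and *Vapb*, to which such proteins attach, had 13 of 13 genes in the table. In heart all 13 reached 1 FPKM and 0 passed the limit, with a median change of 0.05 against 0.03 for all genes. In prostate 12 reached 1 FPKM, and 1 passed, *Osbpl6*, which was lower (27.3 and 15.1 FPKM, log2 change -0.85) where *Osbp2* was higher. Over the 7 tissues 83 pairs of these genes reached 1 FPKM and *Osbpl6* in prostate was the 1 that passed. *Osbp2* and its closest relative *Osbp* share none of their transcripts' 50-base words, so reads of that length can be told apart.

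*Sec14l2* (ENSMUSG00000003585.7, 4097039 to 4123415, minus strand) starts 473.7 kb from *Tug1*, farthest of the 10. It is a liver gene in these data. Wild-type levels were 521 FPKM in liver, 15.9 FPKM in prostate, 11.5 FPKM in eyes, 3.82 FPKM in testes, 2.46 FPKM in spleen, 0.645 FPKM in heart and 0.557 FPKM in MEFs. *Tug1*-/- levels in the same order were 442, 13.3, 10.9, 2.93, 7.29, 0.345 and 0.738 FPKM. Spleen was the tissue in which the gene passed the limit, with 2.46 FPKM in wild-type against 7.29 FPKM in *Tug1*-/-, a log2 change of 1.53, and 0.501% of all genes were higher by as much or more. In the other tissues at 1 FPKM the log2 change was -0.37 in testes, -0.25 in prostate, -0.24 in liver and -0.07 in eyes.

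*Mtfp1* (ENSMUSG00000004748.5, 4091480 to 4095445, minus strand) starts 445.8 kb from *Tug1* and is the neighbor of *Sec14l2*. Its level was highest in heart, a tissue rich in mitochondria, at 89.2 FPKM in wild-type against 91.4 FPKM in *Tug1*-/-. Liver followed with 26.3 and 28.3 FPKM, eyes with 19.4 and 21.7 FPKM, testes with 6.23 and 6.28 FPKM and prostate with 4.54 and 4.25 FPKM. In spleen it went from 2.07 to 3.57 FPKM, a log2 change of 0.76, and 3.44% of genes were higher by as much or more. It no longer passed with a pseudocount of 1, where the change was 0.57, with a level of 5 FPKM or with a limit of 2 times. It was at 0.328 and 0.218 FPKM in MEFs. Of the 4 pairs past the limit, *Mtfp1* in spleen lay closest to it, and the closest within it were *Sec14l2* in testes at -0.37 and *Dusp18* in eyes at 0.37, against limits of 0.58 (log2 of 1.5) on either side.

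Markers of other cell types moved in spleen as well. All 5 pancreatic acinar markers were higher in *Tug1*-/- spleen, with a sum of 2.47 FPKM in wild-type against 1460 FPKM in *Tug1*-/-. *Cela2a*, a pancreatic elastase, went from 0.880 to 543 FPKM, and *Cpa1*, a carboxypeptidase, from 0.383 to 199 FPKM. All 7 erythroid markers in the table were higher as well, with a sum of 7880 and 14700 FPKM, for example *Alas2*, the erythroid heme synthesis enzyme, at 212 and 437 FPKM. The lymphocyte sum was 1200 and 998 FPKM with none past the limit. The part of acinar and erythroid RNA in the values of *Sec14l2* and *Mtfp1* was not tested. The 6 hepatocyte markers summed to 5.00 FPKM in wild-type against 0.897 FPKM in *Tug1*-/- spleen, and *Apoa1* was at 0.857 and 0.00862 FPKM.

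Genes with the same functions stayed within the limit in spleen. None of the 3 other SEC14-like lipid binders at 1 FPKM passed, with a median change of -0.07, nor did any of 8 mitochondrial fission and fusion genes, with a median of 0.05, where all genes had a median of -0.02. *Dnm1l*, the fission dynamin, was at 16.5 and 17.2 FPKM, and *Fis1*, a fission factor of the outer membrane, at 115 and 114 FPKM. Over all tissues 0 of 29 pairs of SEC14-like genes and 0 of 58 pairs of fission and fusion genes passed.

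*Sec14l4* and *Sec14l3* lie between *Gal3st1* and *Mtfp1* on the plus strand, and *Sec14l4* (ENSMUSG00000019368.7, 4031462 to 4048024) shares its main site with *Sec14l2*. It was at 161 FPKM in wild-type against 176 FPKM in *Tug1*-/- liver, a log2 change of 0.13, where *Sec14l2* was at 521 and 442 FPKM. Prostate held 1.26 and 1.02 FPKM, and the other tissues were under 1 FPKM in both genotypes, with MEFs listed at 0. In spleen, where *Sec14l2* was higher, *Sec14l4* was at 0.0164 and 0.0884 FPKM.

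*Sec14l3* (ENSMUSG00000054986.7, 4064841 to 4077736) reached 1 FPKM only in wild-type testes, at 1.08 FPKM against 0.999 FPKM in *Tug1*-/-. It was listed at 0 in both genotypes in prostate, liver and MEFs. In heart it was at 0.256 FPKM in wild-type and listed at 0 in *Tug1*-/-, beside the airway markers given above, whose part in this value was not tested. The transcripts of *Sec14l2*, *Sec14l3* and *Sec14l4* share no word of 50 bases in GENCODE vM21, so the 3 genes can be told apart at that length.

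*Tcn2* and *Pes1* were measured at 1 FPKM or more in all 7 tissues, and neither passed the limit in any of them. *Tcn2* (ENSMUSG00000020432.6, 3917192 to 3932159, minus strand) was at 80.2 FPKM in wild-type liver, 48.9 FPKM in prostate, 36.8 FPKM in MEFs, 31.3 FPKM in spleen, 31.0 FPKM in heart, 21.0 FPKM in eyes and 6.19 FPKM in testes. The *Tug1*-/- levels in that order were 73.3, 46.3, 29.7, 30.8, 34.6, 22.2 and 6.07 FPKM. Its largest change was in MEFs at -0.30, and 8.78% of genes were lower by as much or more there. The order of tissues depends on the scale: after each column was rescaled to a sum of 1000000 (TPM), wild-type prostate stood at 80.5 TPM and liver at 71.3 TPM. Among 15 genes of cobalamin uptake and use, 78 pairs of gene and tissue reached 1 FPKM and 0 passed. In MEFs the cobalamin receptor gene *Cd320* was at 12.3 and 11.7 FPKM.

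*Pes1* (ENSMUSG00000020430.6, 3963975 to 3980004, plus strand) had the smallest ratio of highest to lowest wild-type level among the 10 genes. Wild-type levels were 39.8 FPKM in MEFs, 34.7 FPKM in spleen, 31.4 FPKM in testes, 25.1 FPKM in prostate, 20.6 FPKM in liver, 19.2 FPKM in eyes and 15.0 FPKM in heart. *Tug1*-/- levels in that order were 45.5, 30.6, 31.3, 24.7, 21.2, 19.4 and 15.5 FPKM. Log2 changes lay between -0.18 in spleen and 0.19 in MEFs. Its genomic span overlaps that of the antisense gene *4930556J24Rik* by 12804 bases. The standard protocol of the library kit does not keep the strand, so reads from exons that both share cannot be told apart. *4930556J24Rik* itself was listed at no more than 0.644 FPKM, in wild-type testes. Of 13 other genes of the PeBoW complex and of large subunit assembly, 1 of 91 pairs passed, *Rrp1b* in MEFs, which was higher (5.93 and 9.26 FPKM, log2 change 0.63). In MEFs the median change of the 13 genes was 0.28, against -0.0014 for all genes, with a sum of 328 and 398 FPKM.

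*Dusp18* (ENSMUSG00000047205.6, 3895240 to 3901296, plus strand) was highest in testes and heart. In testes it was at 15.7 FPKM (wild-type) and 14.3 FPKM (*Tug1*-/-), 15.2 and 17.0 FPKM in heart, 2.61 and 2.43 FPKM in MEFs, and 1.36 and 1.78 FPKM in eyes. The eye value had the largest change, 0.37, and 5.49% of genes there were higher by as much or more. Testes and heart change places between genotypes and on the TPM scale, where wild-type heart was at 24.9 TPM and testes at 21.5 TPM. Its start is 142 bases from that of the divergent gene *4921536K21Rik*. Of 14 other atypical dual-specificity phosphatases, 2 of 69 pairs passed, both in eyes: *Dusp13* (4.72 and 10.7 FPKM, log2 change 1.17) and *Dusp27* (0.921 and 1.63 FPKM, log2 change 0.76), both known from skeletal muscle among other tissues. All 5 skeletal muscle markers were higher in *Tug1*-/- eyes, with a sum of 1470 and 2680 FPKM, and their part in these values was not tested.

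*Slc35e4* (ENSMUSG00000048807.2, 3907021 to 3914664, minus strand) differed little. Among its 4 tissues at 1 FPKM, log2 changes lay between -0.08 and 0.12. It was at 9.23 FPKM in wild-type against 10.0 FPKM in *Tug1*-/- MEFs, 6.21 and 5.88 FPKM in eyes, 3.18 and 3.15 FPKM in prostate, and 2.18 and 2.29 FPKM in heart. Spleen held 0.957 and 0.817 FPKM, just under the level required. None of 35 pairs of 5 related SLC35 transporters passed.

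*Gal3st1* (ENSMUSG00000049721.8, 3983636 to 3999326, plus strand) was low throughout. It reached 1 FPKM in testes (1.54 and 1.60 FPKM), eyes (1.35 and 1.49 FPKM) and liver (1.33 and 1.10 FPKM), and its largest change among these was -0.26 in liver. In MEFs it was at 0.301 FPKM in wild-type against 0.117 FPKM in *Tug1*-/-. Of 59 pairs of 12 other genes that make or break down sulfated glycolipids, 0 passed.

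Over the 8 lists of functional relatives, 4 of 502 pairs of gene and tissue passed the limit, 3 higher and 1 lower. Among all genes at 1 FPKM, 2.40% of pairs were higher and 1.48% lower.

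The upstream side was then set beside the downstream side, within 0.6 Mb of the start of *Tug1*. The rule of position holds for 8 further genes at higher coordinates that were not on the list. Of these, 7 reached 1 FPKM somewhere, and 1 of their 37 pairs passed, *Gatsl3* in liver, which was lower (2.09 and 1.35 FPKM, log2 change -0.60). This gene was named after its values were seen. *Osm*, the last gene inside 0.6 Mb at 586.7 kb, was at 2.13 and 1.87 FPKM in spleen and under 1 FPKM elsewhere, and *Lif*, the first outside at 607.9 kb, was at 8.71 and 11.8 FPKM in MEFs and under 1 FPKM elsewhere. Apart from *Morc2a*, no upstream gene in this window passed the limit in more than 2 tissues.

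At lower coordinates, 29 of 90 pairs were higher (32.2%) and 0 lower, with a median change of 0.11 over the pairs. For all upstream genes in the window without *Morc2a*, 3 of 80 pairs were higher (3.75%) and 2 lower (2.5%). Their median change was -0.0107. For the members alone, 3 of 43 were higher (6.98%) and 1 lower (2.33%), with a median change of -0.0048. Of the pairs of all genes at 1 FPKM, 2.40% were higher and 1.48% lower. Distance separates the downstream genes. The 8 nearer to *Tug1* than the outermost start of *Osbp2* held all 29 of the higher pairs, out of 37, with a median change of 0.86. The 12 at least as far as that start held 0 of 53, with changes between -0.31 and 0.45 and a median of -0.02. By outermost starts, the nearest of the 10 members, at 214.2 kb, lies farther from *Tug1* than any downstream gene that passed. No measured upstream gene has a nearer outermost start, with *Morc2a* left out, whose start at 3649191 lies inside *Tug1* in this annotation. The span of *Osbp2* reaches down to 3703731, and its other RefSeq entries, chr11:3774619-3774918 and chr11:3722178-3722477, lie within 197.3 kb of *Tug1*. Which start was used is not known, so the split by distance holds for outermost starts only. The split at the distance of *Osbp2* was chosen after the values were seen. *Rnf185*, which encodes a ubiquitin ligase and starts 197.3 kb downstream, was higher in 7 of 7 tissues, with changes between 0.75 and 1.03. *Osbp2*, with its outermost start at a like distance upstream, passed in 2 of 4 tissues at 1 FPKM, in opposite directions.

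**Figure D4:**
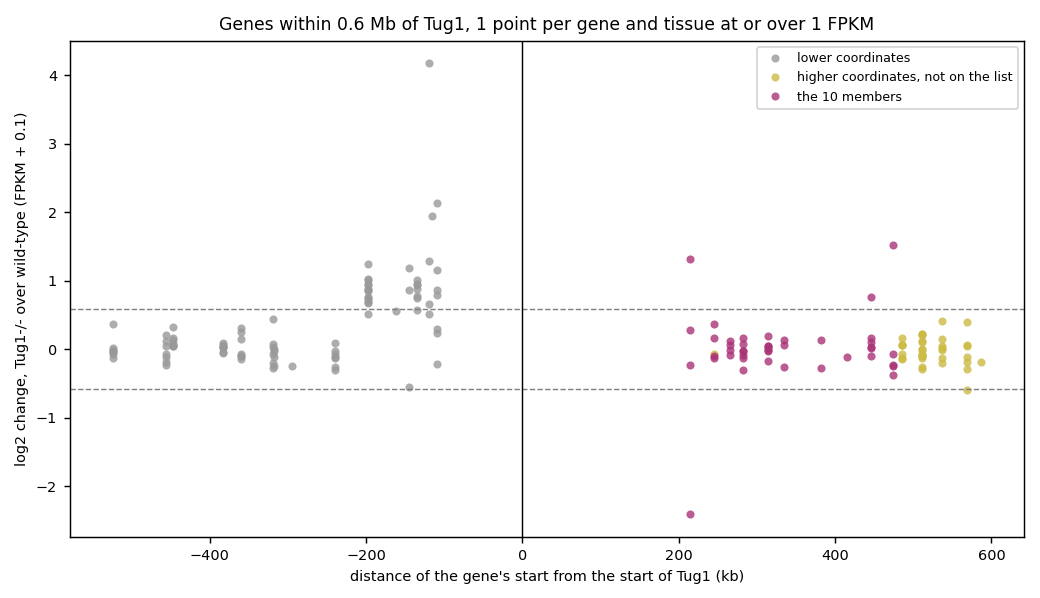
Log2 change (*Tug1*-/- over wild-type, FPKM plus 0.1, y axis) of genes within 0.6 Mb against the distance of their start from that of *Tug1* in kb (x axis, negative at lower coordinates, downstream of *Tug1*), 1 point per gene and tissue at or over 1 FPKM. Purple points are the 10 members, yellow points other upstream genes and grey points downstream genes, and dashed lines mark 1.5 times; 29 grey points lie above the upper line, all within 197.3 kb, and 4 purple points lie outside the lines.

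Each member at 1 FPKM in 3 or more tissues was also matched with the gene of most similar pattern, by Pearson's r of log2(TPM + 0.1) over the 14 columns of tissue and genotype. The columns share tissues in pairs, and the best match of 20871 genes is high by selection. The nearest gene was *Zfp523* for *Osbp2* (r = 0.973), *Kctd9* for *Dusp18* (r = 0.976), *Fbxo25* for *Slc35e4* (r = 0.986), *Reep3* for *Tcn2* (r = 0.991), *Ruvbl1* for *Pes1* (r = 0.988), *Camk2n1* for *Gal3st1* (r = 0.955), *Ppargc1a* for *Mtfp1* (r = 0.973) and *Iqgap2* for *Sec14l2* (r = 0.957). None of these genes is itself a member.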

How the data were processed

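Libraries had been made from polyA RNA with a TruSeq RNA kit. The submitters' processing notes name CASAVA 1.8.2, TopHat2, Cuffdiff and the build mm10. The authors' deposited table gives 1 FPKM value per gene, genotype and tissue, with replicates combined, and names no unit in its header; the unit follows from its layout. Its columns of fold change, test statistic, p-value, q-value and significance hold the authors' own comparisons and were not used, and 2 value sets, of brain, with no labelled samples here were left out. For their own calls the authors used read counts, which are not part of this table.

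Changes were computed as log2((*Tug1*-/- + 0.1)/(wild-type + 0.1)) and read as higher or lower past 1.5 times at 1 FPKM or more in either genotype. No statistical test was run, since the table holds no values per sample. Samples were grouped by title. Positions are from GENCODE vM21 (GRCm38) and promoters from RefSeq. Named genes were the 10 members, other upstream genes past the limit in at least 2 tissues, up to 3 genes past the limit per functional list, and the 1 gene most alike each member; *Dnm1l*, *Fis1*, *Cd320*, *Rnf185* and the single markers were chosen after their values were seen. The members and all lists were chosen with earlier results of these data known. Alternatives were other pseudocounts, floors, fold limits, scalings and windows. The step that reads genes as higher or lower was checked by planting known changes in the deposited values. Python 3.11.15, numpy 2.4.6, pandas 2.3.3 and matplotlib 3.10.9 were used.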

Additional observations from a re-analysis of the deposited data

Results flagged for a closer look

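*Osbp2* was past 1.5 times in opposite directions in different tissues, with a log2 change of 1.32 in prostate and of -2.41 in heart. Each rests on 1 combined value per genotype, and the difference between the tissues was not tested.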

How the results depend on the processing

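All 172 recomputed changes of the members at 1 FPKM, under pseudocounts of 1 and 0.01, rescaling to TPM and centring on the median of all genes, differed from the reported change by at most 0.45 on the log2 scale (*Osbp2* in heart, pseudocount of 1), and none of the 4 past the limit turned its direction. The sign turned in 13 of the 172, for 9 pairs of *Pes1*, *Tcn2*, *Slc35e4* and *Mtfp1* with reported changes of at most 0.13 in size, all under rescaling or centring. Before the pseudocount was added, rescaling shifted log2 ratios by 0.16 in liver and 0.10 in testes. With the pseudocount, weakly expressed genes moved by slightly different amounts. The count in spleen became 1 with a pseudocount of 1, with a level of 5 FPKM or with a limit of 2 times, *Mtfp1* no longer passing. Without a filter on low values, 6 pairs were lower, and the counts were 3 in heart and 1 each in eyes, liver and MEFs. In alternatives chosen after seeing the data, 1 pair was higher and 0 lower without spleen and heart, and 0 were higher and 0 lower without prostate as well. Of all genes at higher coordinates, 4 pairs were lower in a window of 1 Mb and 1 with a pseudocount of 1. No other count moved past 1.5 times. No paired analysis was possible because the table holds combined values and no column per sample, and for the same reason no replicate could be left out. The depth is unknown, so values near 0 have no stated floor.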
